A study of Arabidopsis thaliana with 13 samples.

Results

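The CESA genes of Arabidopsis thaliana encode the catalytic subunits of cellulose synthase, and their loci were examined for binding by 3 proteins: CRY2, a receptor of blue light, and PIF4 and PIF5, which are transcription factors. The family has 10 members of 27444 nuclear protein-coding genes, and all 10 were taken by name. The primary wall genes were CESA1, CESA2, CESA3, CESA5, CESA6, CESA9 and CESA10 (7 genes), and the secondary wall genes were CESA4, CESA7 and CESA8 (3 genes). A peak was counted for a gene when any base of it overlapped the gene body or lay within 3 kb of it. By that rule the family held 37 of 21012 deposited peaks, 14 (CRY2), 14 (PIF4) and 9 (PIF5).

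Cellulose is made at the plasma membrane by rosette complexes that hold several different CESA subunits. Complexes of the growing primary wall need CESA1, CESA3 and a subunit of the CESA6 type (CESA6, CESA2, CESA5 or CESA9), and CESA10 is a close relative of CESA1. CESA4, CESA7 and CESA8 form the complexes of the thickened secondary wall, as in xylem vessels, and loss of any of them gives collapsed, irregular xylem. CRY2 is a photoreceptor that acts in the nucleus, and PIF4 and PIF5 are bHLH factors that promote hypocotyl elongation, a process that depends on new cellulose.

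The material was whole seedlings of ecotype Columbia, raised in white light to an age of 5 days and moved to low blue light for 16 h. There were 3 transgenic lines, and each served for an anti-FLAG precipitation and for a mock precipitation with IgG as its control. The CRY2 line carried 3xFlag-6xHis-CRY2 under the UBQ10 promoter, which is active in most cells, and gave 2 FLAG and 2 IgG libraries from a starting weight of 18 g with dual cross-linking. The PIF4 line carried PIF4-3xFlag-6xHis and gave 3 FLAG and 2 IgG libraries. The PIF5 line carried PIF5-Flash(9xMyc-6xHis-3xFlag) and gave 2 FLAG and 2 IgG libraries, with 2 g of seedlings for each PIF. The promoters of the PIF transgenes are not given in the sources used here. Differences between CRY2 and the PIFs cannot be told apart from those in weight, cross-linking and tagged construct, or from any in promoter. PIF4 and PIF5 also differ in tag and in number of FLAG libraries. The replicates of a protein are pooled in 1 peak list, which leaves no replicate error for any value, and no difference was tested. Depth per library is unknown, and tissues are mixed in whole seedlings, so the cell type of a peak cannot be told. The lists held 7320 CRY2, 9925 PIF4 and 3767 PIF5 peaks, and their median fold enrichments over control were 2.29, 2.46 and 2.40. Their median deposited -log10 p was 6.24, 31.34 and 17.47. By that measure the CRY2 list reached weaker peaks, which limits every CRY2 count and overlap below.

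Peaks of all 3 proteins were found at 5 CESA genes, CESA1, CESA2, CESA3, CESA5 and CESA6, all of the primary wall. Across all nuclear protein-coding genes 21.1% had peaks of all 3 by the same rule. CRY2 was found at 7 of 10 CESA genes, against 46.5% of all genes. PIF4 was found at 8 of 10, against 57.4% of all genes, and PIF5 at 5 of 10, against 27.7% of all genes. CESA genes are long, and among the 1970 genes within their range of length (4263 to 6355 bp) the shares were 50.4% for CRY2, 62.1% for PIF4, 29.0% for PIF5 and 22.2% for all 3. A window of 3 kb on each side takes in neighbouring genes: in 17 of the 37 peaks another protein-coding gene was nearer to the summit than the CESA gene.

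**Figure D1:**
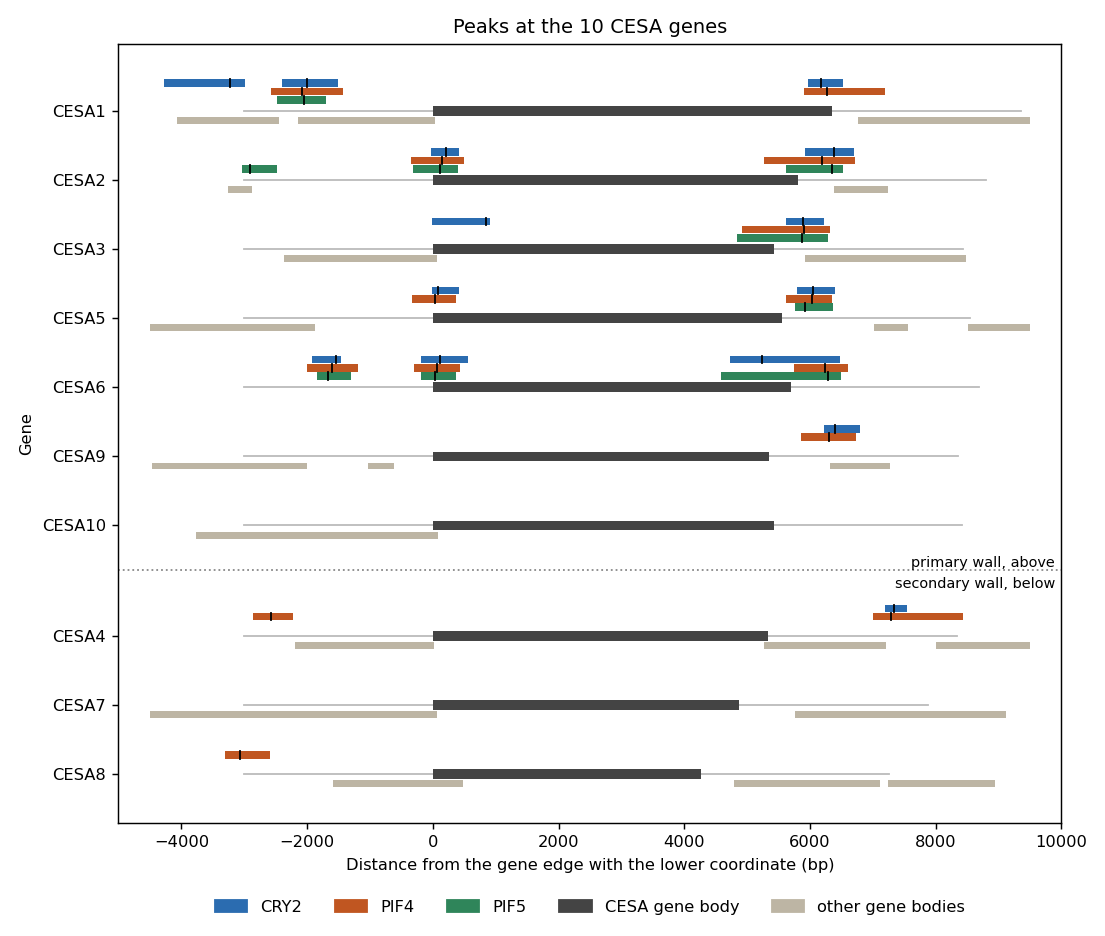
Maps of the 10 CESA genes, with distance in bp from the gene edge of lower coordinate on the horizontal axis; coloured bars are peaks of CRY2, PIF4 and PIF5 with a black tick at the summit, dark bars the CESA gene bodies, pale bars other protein-coding genes, and grey lines the window of 3 kb. Peaks sit at the gene edges of CESA1, CESA2, CESA3, CESA5 and CESA6, while CESA7 and CESA10 have none.

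The primary and secondary wall genes differed in count. CRY2 had a peak at 6 of 7 primary and 1 of 3 secondary wall genes, PIF4 at 6 of 7 and 2 of 3, and PIF5 at 5 of 7 and 0 of 3. The shares of all genes were 46.5% (CRY2), 57.4% (PIF4) and 27.7% (PIF5). In a group of 3 the secondary wall counts cannot be told from these shares. Primary wall genes held 33 of the peaks (13 CRY2, 11 PIF4 and 9 PIF5), and secondary wall genes held 4 (1 CRY2 and 3 PIF4). These totals come from 7 and 3 genes. The 1970 genes of like length held 4123, a peak being counted for each gene in reach. Another gene was nearer to the summit for 4 of 6 peaks at CESA1, 4 of 7 at CESA2 and 3 of 4 at CESA3. The same held for every peak at CESA9, CESA4 and CESA8, and for none at CESA5 or CESA6. Within 1 kb of the 3 secondary wall genes there was no peak. Within 1 kb, CRY2 and PIF4 were each at 6 of 7 primary and 0 of 3 secondary wall genes, where 32.3% (CRY2) and 41.7% (PIF4) of all genes had a peak. PIF5 was within 1 kb at 4 of 7 primary and 0 of 3 secondary wall genes, against 17.8% of all genes. All 3 proteins were within 1 kb at 4 of 7 primary and 0 of 3 secondary wall genes, against 12.2% of all genes. With 3 secondary wall genes and 1 list per protein, these counts describe the loci and carry no test. A count of 0 of 3 cannot be told from the shares of all genes.

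CESA1 (AT4G32410), a subunit needed in every primary wall complex, had peaks on both sides. A region holding all 3 proteins lay beyond its edge of lower coordinate (chr4:15637911-15639064), with fold enrichments of 3.12 (CRY2), 3.67 (PIF4) and 2.44 (PIF5). These summits were 2008 to 2074 bp from CESA1 and lay inside SHS1, the neighbouring gene. At the other edge, CRY2 (2.21) and PIF4 (3.03) overlapped without PIF5 (chr4:15646390-15647685), and their summits were inside CESA1, 175 and 87 bp from its edge. The third region was a CRY2 peak of 2.18 (chr4:15636214-15637500), which had no PIF peak and lay 2989 bp from the gene, just inside the window. The CESA1 body itself was therefore touched by CRY2 and PIF4 peaks and by no PIF5 peak, whose nearest was 1700 bp away.

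CESA3 (AT5G05170), the other core subunit of the primary wall, appears in the gene table as CEV1. It had 1 region of all 3 proteins beyond its edge of higher coordinate (chr5:1534970-1536453), with fold enrichments of 2.63 (CRY2), 3.22 (PIF4) and 3.04 (PIF5). The summits lay between 452 and 480 bp from CESA3 and 19 to 47 bp from AT5G05180. The PIF4 and PIF5 peaks reached into the CESA3 body, whereas the CRY2 peak stopped 186 bp short of it. A CRY2 peak of 1.96 at the opposite edge (chr5:1530112-1531036) overlapped no PIF peak and was among the weakest of its list, at percentile 1.3.

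CESA6 (AT5G64740), whose loss gives the short hypocotyls of procuste1 mutants, was the locus with most peaks, 9 in all. All 3 proteins met in each of its 3 regions. At the distal region (chr5:25879025-25879846) the fold enrichments were 2.18 (CRY2), 3.68 (PIF4) and 2.72 (PIF5), with summits 1545, 1600 and 1660 bp from the gene. At the edge of lower coordinate (chr5:25880727-25881590) they were 2.93, 2.30 and 2.24, with all summits inside the gene and 32 to 117 bp from the edge. At the edge of higher coordinate (chr5:25885617-25887636) they were 2.40, 1.98 and 2.16. The CRY2 and PIF peaks thus differed in which region was strongest: CRY2 at the edge of lower coordinate, PIF4 and PIF5 at the distal region. In the third region the CRY2 summit lay 462 bp inside the gene and the PIF4 and PIF5 summits 547 and 589 bp outside it. No other protein-coding gene lay within 3 kb of CESA6, and CESA6 was the nearest gene of all 9 peaks. Of all nuclear protein-coding genes, 57 (0.208%) had at least 3 regions of all 3 proteins within 3 kb, and this count was looked up after the CESA6 peaks had been seen.

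CESA2 (AT4G39350), of the CESA6 type, carried all 3 proteins at both of its edges. At the edge of lower coordinate (chr4:18296040-18296885) the fold enrichments were 2.34 (CRY2), 3.57 (PIF4) and 3.02 (PIF5), with summits 117 to 203 bp inside the gene. At the other edge (chr4:18301651-18303097) they were 3.04, 3.34 and 2.57, with summits outside CESA2 and nearer to AT4G39360. As at CESA6, the CRY2 peak was strongest in a different region from the PIF peaks. At CESA1, CESA3 and CESA5, by contrast, all 3 proteins were strongest in the same region. PIF5 had only 1 peak at each of these genes, and PIF4 only 1 at CESA3, so no other region was open to them. Without replicate error this order of regions was not tested at any gene. A PIF5 peak of 2.07 (chr4:18293357-18293911) stood without PIF4, 2476 bp from CESA2, with its summit inside the neighbouring gene EC1.4. Such PIF5 regions without either other protein made up 0.393% of the 12738 merged regions.

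CESA5 (AT5G09870), also of the CESA6 type and known for its role in seed coat mucilage, had weaker peaks. Beyond its edge of higher coordinate (chr5:3078486-3079267) the fold enrichments were 2.20 (CRY2), 2.78 (PIF4) and 2.08 (PIF5), with summits 377 to 497 bp from the gene. At the edge of lower coordinate (chr5:3072544-3073280), CRY2 (2.06) and PIF4 (1.96) overlapped without PIF5. CESA5 was the nearest gene of all 5 of its peaks.

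CESA9 (AT2G21770), which acts in seed coat cells, had 1 CRY2 peak of 2.93 and 1 PIF4 peak of 2.21, which overlapped (chr2:9290248-9291179). Both summits lay 955 to 1046 bp from CESA9, with the CRY2 summit inside AT2G21780 and the PIF4 summit 6 bp from it, and the nearest PIF5 peak was 17584 bp away. CESA10 (AT2G25540) had no peak: the nearest were 5168 bp (CRY2), 5749 bp (PIF4) and 7067 bp (PIF5) from the gene. It was the primary wall gene left out by all 3 lists, while its close relative CESA1 had 6 peaks.

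Of the secondary wall genes, CESA4 (AT5G44030, IRX5) had peaks only at a distance. A PIF4 peak of 2.59 (chr5:17711531-17712168) lay 2221 bp from the gene, and CRY2 (2.01) and PIF4 (1.97) overlapped on the other side, 1857 and 1666 bp away (chr5:17721390-17722824). All 3 peaks were nearer to a neighbouring gene, AT5G44020 or AT5G44040. CESA8 (AT4G18780, IRX1) had a single PIF4 peak of 3.01 (chr4:10309318-10310030), 2593 bp from the gene and with its summit inside RLP51. CRY2 and PIF5 peaks near CESA8 lay just outside the window, at 3364 bp (fold enrichment 2.30) and 4461 bp (2.25). CESA7 (AT5G17420, IRX3) was far from every list, with the nearest peaks at 11791 bp (CRY2), 16124 bp (PIF4) and 17444 bp (PIF5). No peak of any list touched the body of a secondary wall gene, against 23.5% (CRY2), 30.7% (PIF4) and 11.9% (PIF5) of all genes. For 3 genes that count cannot be told from these shares.

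**Figure D2:**
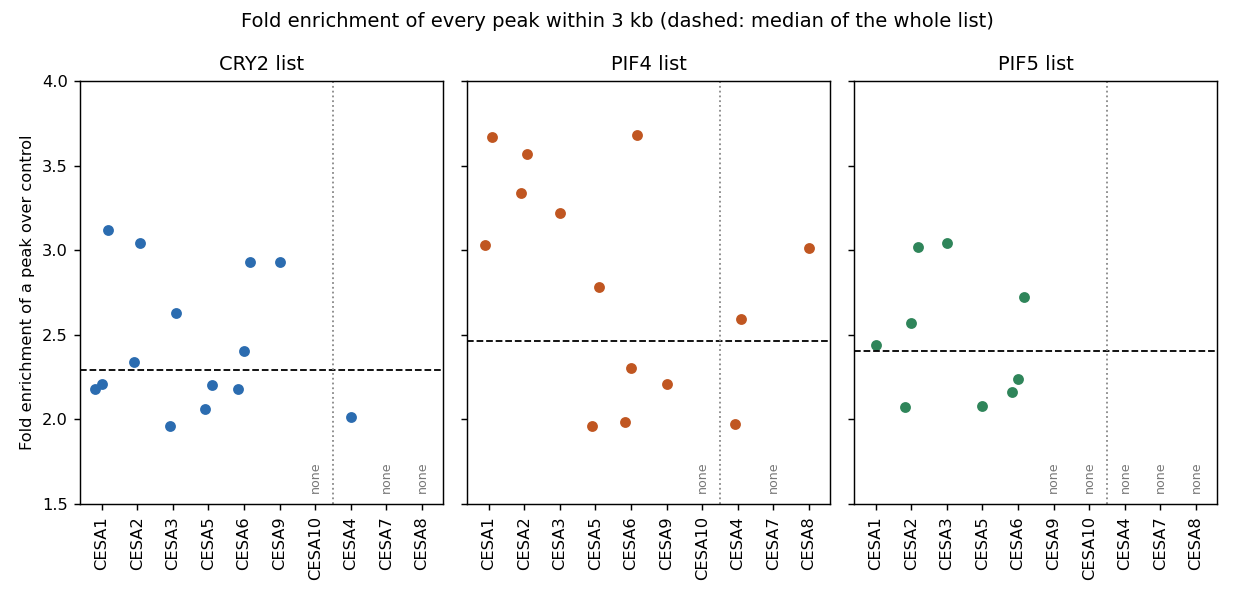
Fold enrichment over control of every peak within 3 kb of a CESA gene, one panel per list, with primary wall genes left of the dotted line and secondary wall genes right of it. Each point is a peak, the dashed line is the median of the whole list, and "none" marks a gene without a peak; the highest points are 3.12 for CRY2 at CESA1, 3.68 for PIF4 at CESA6 and 3.04 for PIF5 at CESA3.

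Peaks at CESA genes were of moderate strength. Their median fold enrichment was 2.27 in the CRY2 list (lowest 1.96, highest 3.12), 2.90 in the PIF4 list (1.96 and 3.68) and 2.44 in the PIF5 list (2.07 and 3.04), against 2.29, 2.46 and 2.40 in the whole lists. Above the median of its list were 7 of 14 CRY2, 9 of 14 PIF4 and 5 of 9 PIF5 peaks. In the upper 10% of the list were 4 CRY2 peaks, at CESA1, CESA2, CESA6 and CESA9, and no PIF4 or PIF5 peak. Of these 4, only the CESA6 peak had its CESA gene nearest to the summit. The PIF4 peaks at CESA6, CESA1 and CESA2 fell just below that cutoff, at percentiles 89.9, 89.8 and 88.2. At or above percentile 75 were 5 CRY2, 6 PIF4 and 2 PIF5 peaks. The top of each list was well above these values, with maxima of 7.87, 5.50 and 7.21.

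Ranked by the strongest PIF4 peak, the order was CESA6 (3.68), CESA1 (3.67), CESA2 (3.57), CESA3 (3.22), CESA8 (3.01), CESA5 (2.78), CESA4 (2.59) and CESA9 (2.21). By the strongest CRY2 peak it was CESA1 (3.12), CESA2 (3.04), CESA6 and CESA9 (2.93 each), CESA3 (2.63), CESA5 (2.20) and CESA4 (2.01). By the strongest PIF5 peak it was CESA3 (3.04), CESA2 (3.02), CESA6 (2.72), CESA1 (2.44) and CESA5 (2.08). CESA1, CESA2, CESA3 and CESA6 thus stood above CESA5 in all 3 orders, which take any peak within 3 kb. The strongest peaks of CESA1 had summits inside SHS1, and those of CESA3 were nearer to AT5G05180. CESA5 and CESA6, by contrast, were the nearest genes of all their peaks. Among peaks with the CESA gene nearest, CESA3 kept only CRY2 at 1.96, below CESA5 at 2.20. CESA1 then kept CRY2 at 2.21 and PIF4 at 3.03, without PIF5. Without a spread between replicates, it is not known which neighbours in an order differ. Over the CESA genes with a peak, the median of the strongest fold enrichment was 2.93 (CRY2), 3.12 (PIF4) and 2.72 (PIF5). Over all genes with a peak of the protein it was 2.36, 2.68 and 2.48, and over such genes of like length 2.35, 2.66 and 2.46. These medians take the strongest of up to 3 peaks per CESA gene. Over all CESA peaks the CRY2 median was 2.27, against 2.29 in the whole list. The strongest CRY2 peaks of CESA1, CESA2, CESA3, CESA4 and CESA9 also had another gene nearer to the summit.

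The proteins met at CESA loci mostly in the same regions. Of the 14 PIF4 peaks, 12 overlapped a CRY2 peak by at least 1 bp, where 40.7% of all PIF4 peaks did. In the other direction 12 of 14 CRY2 peaks overlapped a PIF4 peak, against 60.4% of the CRY2 list. Of the 9 PIF5 peaks, 8 overlapped a PIF4 peak (96.4% in the whole list) and 8 a CRY2 peak (60.0%). The same overlap was 8 of 14 of the PIF4 peaks with PIF5, against 35.1% of the PIF4 list. Summits within 100 bp of a CRY2 summit were found for 10 of the 14 PIF4 peaks, against 20.8% of the list, and an overlap of at least 50% of both peaks for 8, against 24.5%. When the lists were reduced to the 3767 strongest peaks each, 8 of the 14 PIF4 peaks at CESA genes remained. Of these 8, 4 overlapped a CRY2 peak, against 34.8% of the reduced PIF4 list, and 6 overlapped a PIF5 peak, against 70.7%. Of the 9 PIF5 peaks, 6 then overlapped a PIF4 peak, against 75.3%. At equal list size the overlap between the PIFs at CESA genes thus lay near the shares of the reduced lists.

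Merging overlapping peaks gave 17 regions at CESA genes. All 3 proteins were in 8 of them, against 16.7% of the 12738 regions of the genome, and these 8 were at CESA1, CESA2, CESA3, CESA5 and CESA6. CRY2 with PIF4 made up 4 regions (14.5% of the genome's regions), CRY2 alone 2 (21.9%), PIF4 alone 2 (35.7%) and PIF5 alone 1 (0.393%). Such a region of all 3 lay within 3 kb of 5 CESA genes, against 19.2% of all genes. No CESA region held both PIFs without CRY2, a class of 10.2% in the genome. Regions near the same gene are not independent of each other. Where peaks overlapped, PIF4 summits were a median of 56.5 bp from CRY2 summits (range 11 to 1009 bp) and 36 bp from PIF5 summits (17 to 158 bp). In the whole lists these medians were 98 and 30 bp.

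Summits lay near the ends of CESA genes. Of the 37 peaks, 24 had their summit within 1 kb of a gene edge, 13 lay farther outside, and 0 were inside the gene over 1 kb from both edges. In genes of like length these classes held 49.2%, 45.9% and 4.92% of peaks. By protein, the summit was inside the gene for 6 of 14 CRY2, 4 of 14 PIF4 and 2 of 9 PIF5 peaks, against 27.6%, 17.5% and 15.6% in genes of like length. The gene table used has no strand, so an edge cannot be called a start or an end.

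**Figure D3:**
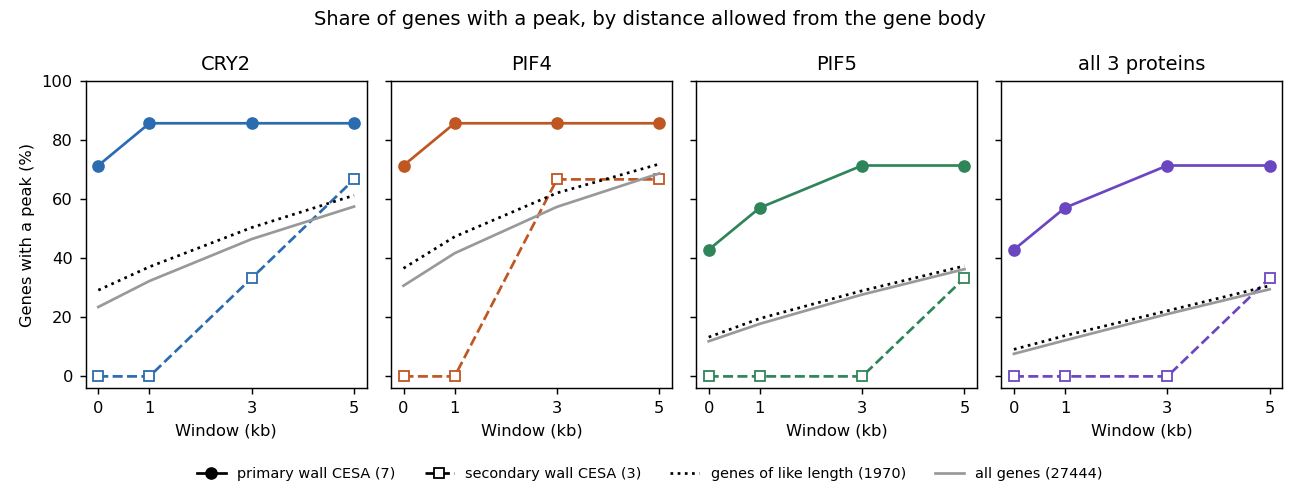
Share of genes with a peak (percent, vertical axis) as the distance allowed from the gene body grows from 0 to 5 kb (horizontal axis), for each protein and for all 3 together. Filled circles are the 7 primary wall and open squares the 3 secondary wall CESA genes, and lines without symbols are genes of like length and all genes. Secondary wall genes are at 0 of 3 up to 1 kb in every panel, which cannot be told from the share of all genes.

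The size of the window set how many genes counted. For the gene body alone, CRY2 and PIF4 were each at 5 CESA genes, against 23.5% and 30.7% of all genes, and PIF5 was at 3, against 11.9%. All 3 proteins touched the body of 3 CESA genes, against 7.64% of all genes. These were CESA1, CESA2, CESA3, CESA5 and CESA6 for CRY2 and PIF4, and CESA2, CESA3 and CESA6 for PIF5. At 5 kb, CRY2 was at 8 CESA genes (57.5% of all genes), PIF4 at 8 (68.7%) and PIF5 at 6 (36.3%). There CESA8 gained CRY2 and PIF5 peaks and so joined the genes with all 3 proteins, which numbered 6 of 10, against 29.5% of all genes. When each peak went to the nearest gene only, CRY2 was left at 5 CESA genes (22.1% of all genes), PIF4 at 4 (28.7%), PIF5 at 3 (11.9%) and all 3 at 3 (7.21%). PIF4 was then at CESA1, CESA2, CESA5 and CESA6, since the CESA3 region went to AT5G05180. With peaks of a -log10 p of at least 10 alone, CRY2 was at 4 CESA genes, against 9.08% of all genes, and all 3 proteins at 3, against 6.36%.

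Other genes of cellulose synthesis were examined by the same rule, from lists taken for their function. Among 15 genes for partners of the complex, CRY2 was at 9, PIF4 at 11 and PIF5 at 5, and all 3 were at 5. These shares were 60.0%, 73.3% and 33.3%, against 46.5%, 57.4% and 27.7% of all genes, and all 3 proteins were at 33.3% of the list, against 21.1%. CTL1, a chitinase-like protein needed for cellulose deposition, had strongest peaks of 2.29 (CRY2), 2.64 (PIF4) and 2.41 (PIF5). The strongest peaks were 2.87, 3.63 and 2.61 at AT1G45688, 2.87, 4.86 and 3.50 at AT2G41770, and 2.93, 3.23 and 2.77 at AT3G57420. COB, COBL4 and KOB1 had no peak.

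Among 14 regulators of secondary wall formation, mostly NAC and MYB factors, CRY2 was at 5, PIF4 at 9 and PIF5 at 4. That is 35.7%, 64.3% and 28.6%, against 46.5%, 57.4% and 27.7% of all genes, so in a list of this size the counts lay near those shares. VND6, a switch for vessel cell fate, had strongest peaks of 2.79 (CRY2), 3.92 (PIF4) and 2.54 (PIF5). MYB46, a factor upstream of the secondary wall CESA genes, had 2.37, 3.56 and 2.72. VNI2, a NAC repressor that binds VND7, had 3.04, 3.35 and 2.62, and MYB63, an activator of lignin genes, had 2.47 for CRY2 and 1.99 for PIF4. VND7, SND1, SND2 and MYB58 had no peak.

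The cellulose synthase-like genes include the CSLD and CSLC families. Of 6 CSLD genes, which act in tip-growing cells and cell plates, CRY2 was at 4 (66.7%, against 46.5% of all genes), PIF4 at 2 (33.3%, against 57.4%) and PIF5 at 1 (16.7%, against 27.7%). CSLD2 had strongest peaks of 2.31 (CRY2), 2.48 (PIF4) and 2.29 (PIF5). CSLD3, the KOJAK gene of root hairs, had 2.23 for CRY2 and 3.08 for PIF4, and CSLD1 and CSLD4 had CRY2 alone (2.46 and 2.23). Of 5 CSLC genes, which make the xyloglucan backbone, each protein was at 2 (40.0%). The shares of all genes were 46.5% (CRY2), 57.4% (PIF4) and 27.7% (PIF5). No CSLC gene had all 3, against 21.1% of all genes. CSLC4 had 2.15 for CRY2 and 2.12 for PIF5, CSLC6 had 2.41 for CRY2 and 2.13 for PIF4, and CSLC8 had 3.95 for PIF4 and 2.08 for PIF5.

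The last list held genes that supply UDP-glucose, the substrate of cellulose synthase. Of 10 members, CRY2 was at 2 (46.5% of all genes), PIF4 at 5 (57.4%) and PIF5 at 1 (27.7%), and none had all 3 (21.1%). The PIF4 count lay near the share of all genes. SUS3, a sucrose synthase, had strongest peaks of 2.97 for PIF4 and 2.60 for PIF5, and UGP2, a UDP-glucose pyrophosphorylase, had 2.64 for CRY2 and 2.29 for PIF4. SUS6 had CRY2 alone (2.16) and UGP1 PIF4 alone (2.51).

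**Figure D4:**
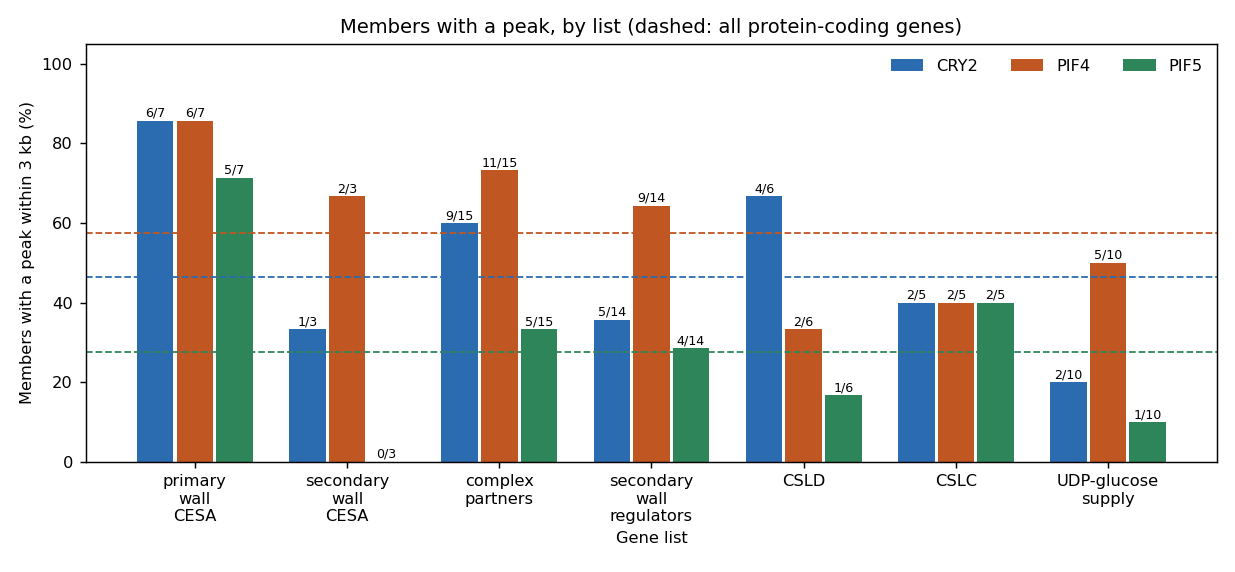
Share of members with a peak within 3 kb (percent, vertical axis) in the CESA groups and 5 other lists of cellulose genes, with the count of members above each bar. Dashed lines give the share of all protein-coding genes for CRY2 (46.5%), PIF4 (57.4%) and PIF5 (27.7%) in the colour of the protein. The bars of the primary wall CESA genes and of the complex partners are above their lines for each protein.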

How the data were processed

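Each protein had 1 deposited peak list, 3 in all, and the authors pooled its replicates there. Per the submitters' processing notes, the build was TAIR10 and the tools were MACS2 2.0.10, Bowtie2 2.1.0 and CASAVA 1.8.2, with roles not stated. In each list the authors gave a ratio (fold enrichment over control), the -log10 p, a summit offset and a deposited score, which equals the whole part of 10 times the -log10 p in all 21012 lines. The number of per-sample columns not used was 0.

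Genes came from the RefSeq table of assembly TAIR10.1, without strand or sequence, so its coordinates are not printed. Its frame was checked: 49.3% of PIF4 summits lay outside genes and within 1 kb of one, against 20.2% after a shift of 2000 bp. Coordinates are those of the peaks on TAIR10, counted from 1. Of the 60 list members, all 60 matched a locus, and 6 whose names are not in the table are given by locus. A fixed set of names, among them KOB1, SND1, CSLC6 and CSLC8, was printed whether or not the table held them. Percentiles are ranks of fold enrichment within a list.

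No test was run, since each protein has 1 pooled list. Members and lists were chosen with earlier results of these data known. All CESA peaks are named. In the other lists, values are given for up to 4 members in listed order, starting with those with peaks of most proteins, and genes without a peak were added after their values were seen. The rules recovered 200 of 200 simulated peaks as placed. Python 3.11.15, numpy 2.4.6, pandas 2.3.3 and matplotlib 3.10.9 were used. Alternatives covered windows, assignment, stricter lists, lists of equal size and overlap rules. The planned G-box search was left out, since it needs promoter sequence.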

Additional observations from a re-analysis of the deposited data

How the results depend on the processing

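Of 41 alternatives to the counts over the family, 32 stayed within 1.5 times the reported count and 9 moved. Some of the 32 could not move. The -log10 p cutoff removed no PIF peak, and the cut to equal size left the PIF5 list, the shortest, as it was. Counting peaks on the gene body alone gave 5 genes for PIF4, 3 for PIF5 and 3 with all 3 proteins (7.64% of all genes). Assignment of each peak to the nearest gene gave 4 genes for PIF4, 3 for PIF5 and 3 with all 3 proteins (7.21%). A -log10 p of at least 10 left 4 genes for CRY2 (9.08%) and 3 with all 3 proteins (6.36%), and removed no PIF peak. With lists of equal size, 4 of the 8 PIF4 peaks that remained at CESA genes overlapped a CRY2 peak (34.8% of the reduced list), against 12 of 14 in the full lists (40.7%). The strongest fold enrichment was the same in 19 of 19 cases when the summit had to lie within 3 kb, and CESA8 lost its PIF4 peak. Ranking by -log10 p moved 1 of 20 percentiles by over 10 points, that of CRY2 at CESA4 (14.0 in place of 2.8). No paired analysis was possible because the lists pool the replicates, and no replicate could be left out for the same reason. The search for G-boxes in promoters was not run.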

Other observations

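Of the CESA genes, CESA2 had the highest mean percentile of its strongest peaks over the 3 lists (87.7). The 3 protein-coding genes most like it, by the summed difference in percentile of the strongest peak over 3 lists, were AT2G46200, SLD2 and AT2G46220, out of 5796 other genes with peaks of all 3 proteins. They are neighbours that share the same peaks, with strongest fold enrichments of 3.07 (CRY2), 3.60 (PIF4) and 3.02 (PIF5). At CESA2 these were 3.04, 3.57 and 3.02.

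CESA2 and CESA9 have EC1 genes on the side of lower coordinate. All 3 proteins had a peak across the CESA2 edge on that side, with summits inside CESA2 and PIF4 at 3.57, while none of the 3 lists had a peak at that edge of CESA9. On the other side, CESA2 had all 3 proteins beside AT4G39360, and CESA9 had CRY2 (2.93) and PIF4 (2.21) beside AT2G21780. This pair was singled out after the values were seen.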
